A study of Mus musculus with 19 samples.

Results

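The complement genes are those that encode the plasma and membrane proteins of the complement cascade, and they were examined in the livers of mice that lack RALY, an RNA-binding hnRNP, in hepatocytes. The list held 33 symbols of the classical, lectin, alternative and terminal pathways and of their regulators and receptors. In the deposited table of 24054 genes, 32 were found by their own symbol and C1s was found as C1s1, for which RefSeq gives C1s as a synonym. Of the 33, 31 had a mean value of at least 1 and were tested, whereas C7 and C5ar1 lay below that level and are given as values only.

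Liver RNA was sequenced from chow-fed C57BL/6 Raly flox/flox mice. An adeno-associated virus was injected into every mouse 4 weeks before the livers were taken. In 3 mice (L-RalyKO) it was AAV8.TBG.Cre, which deletes floxed Raly, and in 3 controls it was AAV8.TBG.GFP. The labels name the controls wild type, but they carry the floxed allele and a GFP virus. The TBG promoter drives Cre in hepatocytes, so that other liver cells keep Raly. The age of these mice is not given in the sources used here, and the study used males unless it says otherwise. Raly itself stood at 6.34, 6.61 and 7.39 in L-RalyKO livers and at 50.1, 48.6 and 46.8 in controls.

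Complement is a chain of plasma proteases and pore-forming proteins that marks microbes and cell debris for uptake and lyses membranes, and hepatocytes secrete most of its plasma proteins. The classical pathway starts when C1q binds antibody, the lectin pathway when mannose-binding lectins bind sugars, and the alternative pathway when C3 turns over by itself. All converge on C3 and then C5, after which C6, C7, C8 and C9 assemble into the membrane attack complex. C1q, properdin and the receptors for C3a and C5a come mainly from macrophages and other myeloid cells, and factor D comes mainly from fat.

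Values throughout are reads scaled by each library's effective size (RPM on that size), not divided by gene length, from 28302983 to 38052705 reads per liver. Of the 31 tested complement genes, 6 rose and 3 fell in L-RalyKO liver at an adjusted p under 0.05 (limma on log2(value + 1), Benjamini-Hochberg over all 11580 tested genes). These 9 genes were 29% of those tested, where 6.55% of all tested genes passed (3.36% higher and 3.19% lower). The genes that rose were C6, C8a, C8b, C9, C2 and Mbl2, and those that fell were Mbl1, Cd59a and Cfd. Cfd reached the mean of 1 only through the controls, so that its count among the 9 is no support, and the other 8 had means above 1 in both groups. The median log2 fold change was 0.07 over the 31 genes and 0.00 over all tested genes. The values of the groups did not overlap for 14 of the 31 (45.2%, 11 higher and 3 lower), where this held for 28.1% of all tested genes. It also held for 50% of the 10 hepatocyte markers described below (5 higher and 0 lower). With 3 livers per group an exact permutation test of a single gene cannot give a p under 0.1, and every gene whose groups did not overlap had that p.

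On the recovered reads, edgeR's quasi-likelihood test called 8 complement genes (6.76% of all genes), DESeq2 called 10 (9.36%) and limma voom called 8 (6.36%). Of the 9 calls, those of C6, C8b, C9 and Mbl2 held in all 16 alternatives tried, which are other tests, scalings, pseudocounts and filters, a replicate block and the omission of each liver in turn. The number of calls fell to 4 without L-RalyKO replicate 1 (2.87% of all genes), to 5 without L-RalyKO replicate 2 (3.77%) and to 4 without L-RalyKO replicate 3 (4.24%). It was 6 without control replicate 1 (3.19%), 8 without control replicate 2 (4.66%) and 8 without control replicate 3 (7.02%). It was 5 without the intensity trend (4.63%), 5 with all genes of at least 1 read (2.81%), 9 with total count scaling (6.85%), 8 with upper-quartile scaling (6.59%), 9 with a pseudocount of 0.1 (6.6%), 8 at a mean of at least 5 (7.52%) and 8 with the replicate block (6.08%). The falls were the less stable part, since none of the 3 passed without L-RalyKO replicate 1, without L-RalyKO replicate 3, without the trend or with all genes of at least 1 read.

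**Figure D1:**
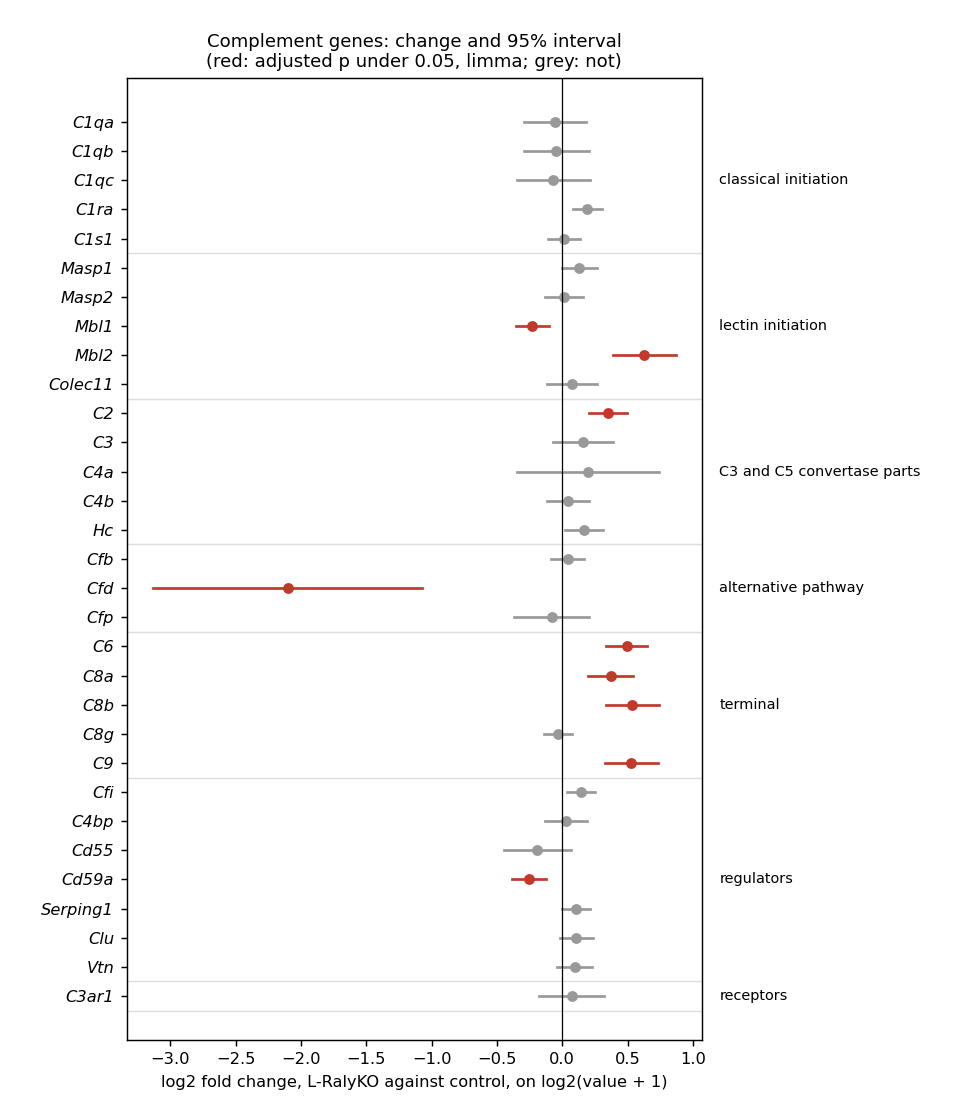
Each point is the log2 fold change of a tested complement gene (x axis, log2(value + 1) scale, L-RalyKO against control) with its 95% interval from limma, grouped by role, with red for an adjusted p under 0.05. The terminal genes C6, C8a, C8b and C9 lie together between 0.37 and 0.54 while C8g lies at −0.03, and Cfd lies farthest from 0 at −2.10.

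The terminal pathway held most of the rises. Of its 6 genes, C6, C8a, C8b and C9 rose, C8g did not pass the test, and C7 was nearly absent from these livers. The 4 that rose were 80% of the 5 that were tested, where 3.36% of all tested genes rose. C6 encodes the first protein to join C5b on the membrane. Its values were 276, 255 and 257 in L-RalyKO livers and 174, 181 and 205 in controls, so that every L-RalyKO liver lay above every control. The log2 fold change was 0.49 (95% interval 0.34 to 0.65, adjusted p = 0.00587 from limma, 1.41-fold), the smallest p of the 31 genes. C9 encodes the protein that polymerizes into the pore. C9 had values of 402, 384 and 434 against 285, 247 and 316 in controls, again with no overlap. Its log2 fold change was 0.53 (95% interval 0.33 to 0.73, adjusted p = 0.0120 from limma).

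C8 is built of 3 chains, alpha, beta and gamma, each from its own gene. C8b (beta chain) had values of 277, 292 and 299 in L-RalyKO livers and of 171, 209 and 220 in controls. It rose by 0.54 on the log2 scale (95% interval 0.33 to 0.74, adjusted p = 0.0114 from limma). C8a (alpha chain) had values of 788, 810 and 872 against 574, 664 and 676, and rose by 0.37 (95% interval 0.20 to 0.54, adjusted p = 0.0244 from limma). The groups did not overlap for either chain. The call of C8a was lost, by its adjusted p in limma, without L-RalyKO replicate 1 (0.0577), without L-RalyKO replicate 2 (0.0635), without L-RalyKO replicate 3 (0.0715), without control replicate 1 (0.0533), without the intensity trend (0.0522) and with all genes of at least 1 read (0.0541), with log2 fold changes from 0.30 to 0.41 over the alternatives.

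C8g, which encodes the gamma chain, a lipocalin bound to the alpha chain, had values of 261, 255 and 244 in L-RalyKO livers and of 263, 263 and 251 in controls. Its groups overlapped, and the interval of its log2 fold change (−0.14 to 0.08) lay below the lower bounds of C8a and C8b. The ratio of C8b to C8g within a liver was 1.06, 1.14 and 1.22 in L-RalyKO livers and 0.649, 0.793 and 0.879 in controls. That of C8a to C8g was 3.02, 3.18 and 3.57 against 2.18, 2.52 and 2.70. For both ratios every L-RalyKO liver lay above every control. The ratio of C8a to C8b was lower in L-RalyKO livers, at 2.85, 2.78 and 2.92 against 3.36, 3.18 and 3.07. These 3 ratios were chosen after the values of the genes were seen and are given as a description, with no test.

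C7, the remaining terminal gene, had values of 0.785, 1.02 and 0.816 in L-RalyKO livers and of 1.10, 0.491 and 0.892 in controls, which overlapped. Per kb of exon the control mean was 0.31 for C7, against 46.2 for C6, 78.6 for C8b, 111 for C9, 173 for C8g and 175 for C8a. Liver RNA therefore held little C7 transcript in either group.

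**Figure D2:**
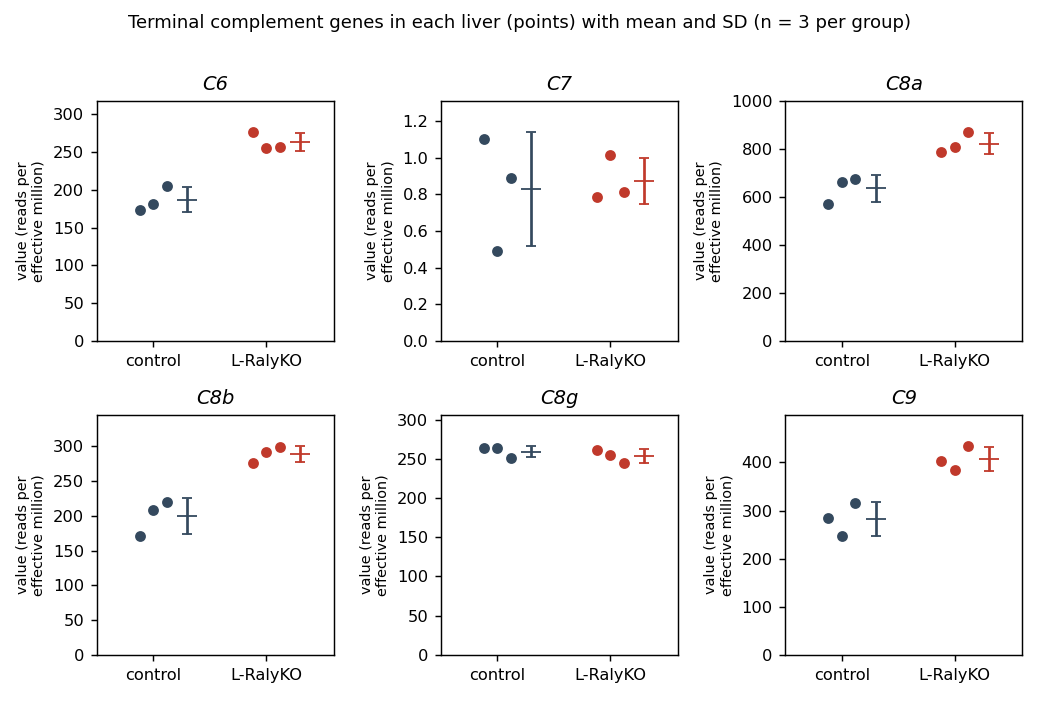
Values in RPM on effective library size (y axis, from 0) of the 6 terminal complement genes in each control and L-RalyKO liver, with the mean and SD of 3 livers beside the points. C6, C8a, C8b and C9 show no overlap between the groups, whereas C7 and C8g do.

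In GENCODE vM1 on NCBIM37 (mm9), C8b (ENSMUSG00000029656.7, chromosome 4 from 104438922 to 104477153, + strand) and C8a (ENSMUSG00000035031.9, chromosome 4 from 104488284 to 104549003, − strand) face each other 11130 bases apart with 0 protein-coding genes between them. C8g (ENSMUSG00000015083.5) lies on chromosome 2 from 25354171 to 25357239. C6 (chromosome 15 from 4677175 to 4765456), C7 (4938762 to 5013740) and C9 (6395327 to 6448744) share a stretch of chromosome 15. C6 and C7 lie 173305 bases apart with 1 protein-coding gene between them, and C7 and C9 lie 1381586 bases apart with 8.

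On the opposite strand C8a overlaps Gm17662, C8g overlaps Fbxw5 and C7 overlaps U6, as Masp2 does Tardbp, Hc Gm13449, C2 Zbtb12 and Cd55 Gm16083. C1s1 overlaps C1rb and Gm16567 in the same way. Whether reads were counted by strand is not given in the sources used here.

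The promoters of the 4 rising terminal genes are shown because these genes moved together. Each is the RefSeq window of 250 bases before to 50 bases after the gene's start, taken from a GRCm38.p6 table and found once, by exact match, in NCBIM37 at the position given. Capitals mark CCAAT (the box that NFY binds), GTTAAT (part of the site of HNF1, a hepatocyte factor), TTCNNNGAA (the core that STAT factors bind) and AAAGTCC (a core of HNF4 sites), on either strand.
C6, chr15:4676960-4677259, + strand: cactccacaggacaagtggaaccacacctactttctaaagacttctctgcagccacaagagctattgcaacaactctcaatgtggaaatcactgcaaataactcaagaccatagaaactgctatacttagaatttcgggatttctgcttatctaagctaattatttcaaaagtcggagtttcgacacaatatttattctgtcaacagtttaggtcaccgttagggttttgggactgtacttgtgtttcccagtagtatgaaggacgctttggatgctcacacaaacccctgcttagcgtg
C8a, chr4:104548954-104549253, - strand: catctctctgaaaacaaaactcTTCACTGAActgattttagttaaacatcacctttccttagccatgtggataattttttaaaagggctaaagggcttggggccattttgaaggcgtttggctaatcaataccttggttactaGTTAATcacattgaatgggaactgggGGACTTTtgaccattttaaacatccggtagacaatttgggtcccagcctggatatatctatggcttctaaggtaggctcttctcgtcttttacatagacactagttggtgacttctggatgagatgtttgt
C8b, chr4:104438672-104438971, + strand: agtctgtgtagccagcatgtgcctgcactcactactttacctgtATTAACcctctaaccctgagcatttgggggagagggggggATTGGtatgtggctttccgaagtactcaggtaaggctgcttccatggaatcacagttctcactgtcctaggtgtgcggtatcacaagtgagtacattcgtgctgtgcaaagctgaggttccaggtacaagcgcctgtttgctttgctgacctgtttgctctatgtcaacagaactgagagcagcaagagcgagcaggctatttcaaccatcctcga
C9, chr15:6395096-6395395, + strand: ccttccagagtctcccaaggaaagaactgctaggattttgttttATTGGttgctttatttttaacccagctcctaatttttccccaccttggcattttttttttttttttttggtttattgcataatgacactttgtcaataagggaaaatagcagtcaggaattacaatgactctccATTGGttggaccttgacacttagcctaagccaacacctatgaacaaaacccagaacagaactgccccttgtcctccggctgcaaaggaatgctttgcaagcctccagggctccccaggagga

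None of the 4 motifs was in all 4 windows, and no match overlapped another. C9 held CCAAT at 2 places and C8b at 1, C8a and C8b held GTTAAT once each, C8a also held TTCNNNGAA and AAAGTCC, and C6 held none of them. Of 24 complement genes with a RefSeq window, 4 held CCAAT (16.7%), where 37.4% of all 32851 windows held it. GTTAAT occurred in 9 of the 24 (37.5%) and in 7.1% of all windows, and among these 9 only C8a and C8b rose. TTCNNNGAA occurred in 6 of the 24 (25%, and 8.3% of all windows), and AAAGTCC in 1 (4.17%, and 4.21% of all). A match to such letters is a description of the sequence and not evidence of binding.

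In the lectin pathway the paired mannose-binding lectins moved in opposite directions. Mbl2, which encodes MBL-C, had values of 337, 331 and 259 in L-RalyKO livers and of 195, 218 and 183 in controls, with no overlap. Its log2 fold change of 0.63 (95% interval 0.39 to 0.87, adjusted p = 0.0119 from limma, 1.55-fold) was the highest of the 31 genes. Mbl1, which encodes MBL-A, had values of 90.9, 88.6 and 89.2 against 109, 109 and 97.9 in controls, and fell by 0.23 (95% interval −0.35 to −0.10, adjusted p = 0.0444 from limma). The groups of Mbl1 did not overlap either, but its call held in 7 of 16 alternatives. It was lost without any one L-RalyKO liver (adjusted p of 0.114 without replicate 1, 0.118 without replicate 2 and 0.106 without replicate 3, limma), without control replicate 1 (0.137), without control replicate 2 (0.117), with the replicate block (0.0558), without the intensity trend (0.0916), with upper-quartile scaling (0.0536) and with all genes of at least 1 read (0.0638). The ratio of Mbl2 to Mbl1 was 3.70, 3.74 and 2.91 in L-RalyKO livers and 1.79, 2.01 and 1.87 in controls. Since Mbl2 separated upward and Mbl1 downward, this ratio had to separate, and it is given as a description with no test, chosen like those of C8 after the values were seen.

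The promoters of Mbl2 (ENSMUSG00000024863.5, chromosome 19) and Mbl1 (ENSMUSG00000037780.2, chromosome 14) are given as those of related genes that moved apart, in the same form and with the same marks. Their longest common run, ctggggttgaagg (13 bases), begins 57 bases before the start of Mbl2 and 23 bases before that of Mbl1. Mbl1 held CCAAT at 2 places and Mbl2 held none of the 4 motifs.
Mbl2, chr19:30307168-30307467, + strand: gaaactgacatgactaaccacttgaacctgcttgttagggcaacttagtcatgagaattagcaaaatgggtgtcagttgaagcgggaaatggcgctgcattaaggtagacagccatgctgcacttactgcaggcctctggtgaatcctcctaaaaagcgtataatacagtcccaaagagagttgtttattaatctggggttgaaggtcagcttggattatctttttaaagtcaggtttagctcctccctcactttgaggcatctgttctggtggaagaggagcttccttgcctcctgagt
Mbl1, chr14:41964495-41964794, + strand: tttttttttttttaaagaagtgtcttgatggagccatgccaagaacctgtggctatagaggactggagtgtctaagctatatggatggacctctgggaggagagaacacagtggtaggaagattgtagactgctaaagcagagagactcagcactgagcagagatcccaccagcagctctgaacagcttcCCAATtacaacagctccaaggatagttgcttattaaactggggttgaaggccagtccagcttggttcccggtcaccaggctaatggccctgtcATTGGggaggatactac

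The proteases that the lectins carry, Masp1 and Masp2, did not pass the test. Masp1 had values of 103, 96.9 and 100.1 against 85.3, 90.7 and 98.1 (log2 fold change 0.13, 95% interval −0.01 to 0.27, adjusted p = 0.238, limma). Masp2 had values of 238, 249 and 218 against 245, 235 and 220 (log2 fold change 0.01, 95% interval −0.13 to 0.16, adjusted p = 0.94, limma). Colec11, a collectin that is also made by stellate cells, had values between 19.4 and 24.6 in all livers, which overlapped, and changed by 0.07 on the log2 scale (adjusted p = 0.66, limma).

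**Figure D3:**
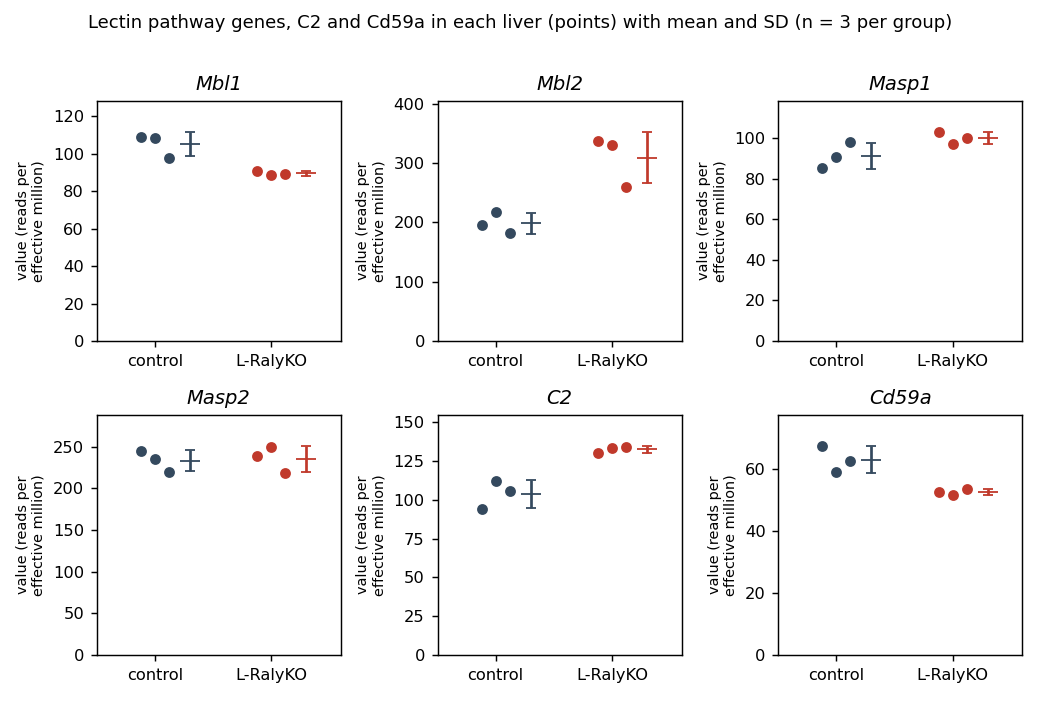
Values in RPM on effective library size (y axis, from 0) of Mbl1, Mbl2, Masp1, Masp2, C2 and Cd59a in each liver, with the mean and SD of 3 livers beside the points. L-RalyKO livers lie above the controls for Mbl2 and C2 and below them for Mbl1 and Cd59a, and the groups overlap for Masp1 and Masp2.

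Among the proteins that form the C3 and C5 convertases and their substrates, C2 rose. C2 encodes the protease of the classical and lectin C3 convertase. Its values were 130, 133 and 134 in L-RalyKO livers and 94.3, 112 and 106 in controls, with no overlap. The log2 fold change was 0.35 (95% interval 0.20 to 0.50, adjusted p = 0.0178 from limma), and the adjusted p was 0.0566, 0.0571 and 0.0562 without L-RalyKO replicates 1, 2 and 3 in turn. C2 lies on chromosome 17 from 34999549 to 35035397, 85 bases from Cfb, and a readthrough model (Gm20547) spans both and holds 37% of the 50-base words of C2 transcripts and 74.2% of those of Cfb, so that counting could have moved reads among these models. Cfb, which encodes the protease of the alternative C3 convertase, had values of 1090, 1057 and 1083 against 1000, 1042 and 1096, which overlapped (log2 fold change 0.04, 95% interval −0.08 to 0.17, adjusted p = 0.706, limma).

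C3, the central component of all pathways, had the highest level of the 33 genes, 1519 ± 152 per kb of exon in controls (SD, n = 3). Its values were 9054, 8270 and 8715 in L-RalyKO livers and 6940, 7982 and 8461 in controls, which overlapped (log2 fold change 0.16, 95% interval −0.07 to 0.39, adjusted p = 0.387, limma). Hc, the gene of C5, had values of 972, 887 and 991 against 814, 827 and 899 (log2 fold change 0.17, 95% interval 0.02 to 0.31, adjusted p = 0.175, limma), with 1 control above the lowest L-RalyKO liver.

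C4b, the gene of mouse C4, had values of 1755, 1576 and 1522 against 1639, 1547 and 1513 (log2 fold change 0.04, adjusted p = 0.762, limma). C4a, its copy 65209 bases away, had values of 79.7, 86.1 and 88.6 in L-RalyKO livers and of 88.1, 45.7 and 98.9 in controls. Control replicate 2 was the one low liver, and the log2 fold change of C4a was 0.20 with all livers and −0.14 without it, neither past the test. Both values are uncertain, because 29.5% of the 50-base words of C4a transcripts also occur in C4b and 34.6% of those of C4b in C4a.

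**Figure D4:**
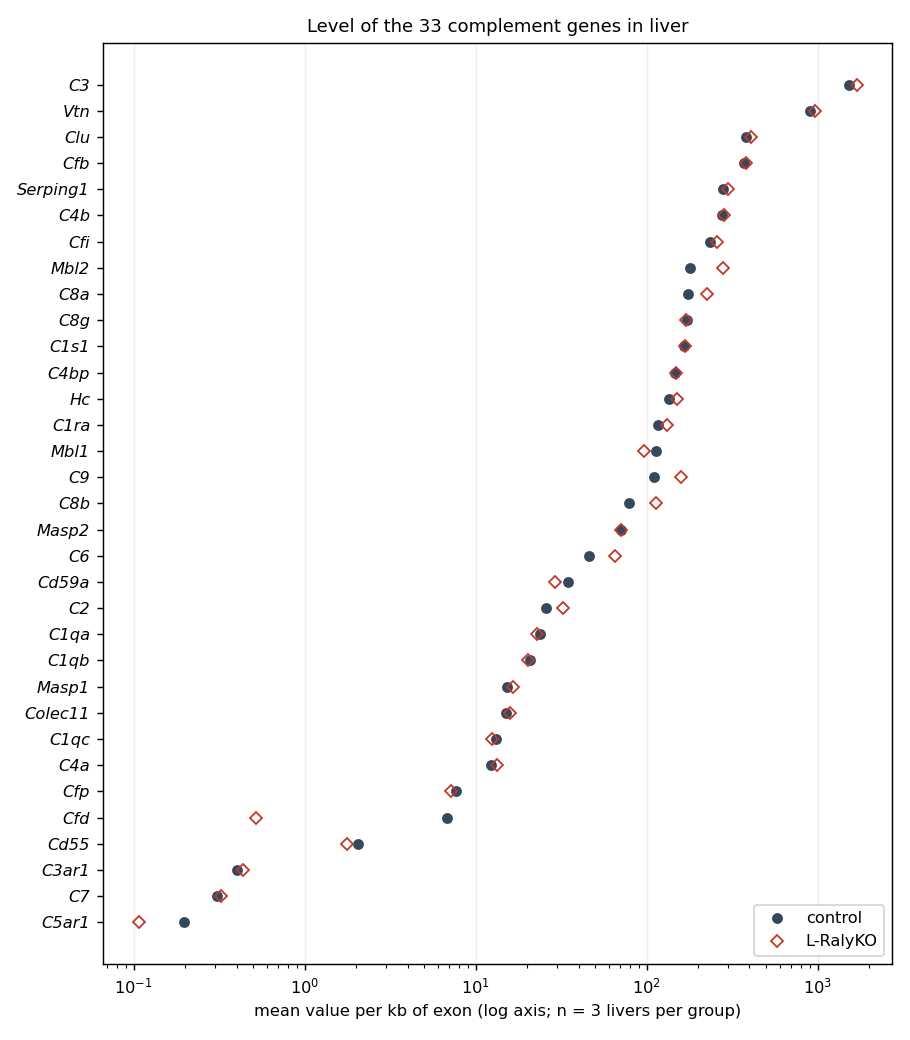
Mean value per kb of exon (x axis, log scale) of each of the 33 complement genes in control (filled) and L-RalyKO (open) livers, ordered by the control mean, with 3 livers per group. C3 and Vtn lie at the top and C3ar1, C7 and C5ar1 at the bottom, a span from 1519 to 0.197 in controls.

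Complement Factor D, the protease that cleaves factor B and is known as adipsin, fell the most. Cfd had values of 0.204, 1.10 and 0.132 in L-RalyKO livers and of 12.6, 2.74 and 3.46 in controls, so that the groups did not overlap but the controls differed widely (6.27 ± 5.50, SD, n = 3). The log2 fold change was −2.10 (95% interval −3.13 to −1.07, adjusted p = 0.0318 from limma). With a mean of 0.479 in L-RalyKO livers, Cfd was admitted to the test by its controls alone, of which replicate 1 was the highest, so that a difference was built into its admission. The call was lost in edgeR on the recovered reads (log2 fold change −3.73, adjusted p = 0.143), in limma voom (−3.96, 0.0629), without the intensity trend (0.0589), with all genes of at least 1 read (0.0685), without L-RalyKO replicate 1 (adjusted p = 0.101, limma) and without L-RalyKO replicate 3 (0.0934), and DESeq2 gave 0.0108.

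Fat traces were looked for because Cfd is an adipocyte gene. Of the 12 adipocyte markers examined, Adipoq, Plin1, Lep and Retn, picked after their values were seen, were at or near 0. Adipoq had 4, 0 and 1 reads in the controls and 2, 0 and 0 in L-RalyKO livers, and Plin1 had 2, 2 and 0 reads against 0 in every L-RalyKO liver. Lep had 7 reads and Retn 5 reads in control replicate 1, the liver with the highest Cfd, and both were at 0 in the other 5 livers. Control replicates 2 and 3 had 78 and 128 reads of Cfd with at most 2 reads of any of these 4 markers. Aoc3, an amine oxidase of fat and vessels, had 11, 14 and 6 reads in controls and 7, 15 and 13 in L-RalyKO livers, which overlapped. Cidec, a lipid droplet gene of fat and of fat-laden hepatocytes, stood, like Cfd highest in control replicate 1, at 38.8, 7.54 and 14.1 in controls against 4.71, 6.30 and 5.58, without overlap, and its log2 fold change was −1.41 (adjusted p = 0.105, limma). Over the alternatives the log2 fold change of Cidec ran from −1.92 to −0.81, and 1 of 16 called it. Fabp4, a fatty acid carrier of adipocytes that other cells also make, had 254, 144 and 247 reads in controls and 197, 165 and 208 in L-RalyKO livers, which overlapped. Pnpla3, a lipase of fat and liver, had 57, 43 and 25 reads in controls against 15, 23 and 18, too low to be tested. Its scaled values were lower in every L-RalyKO liver, but those of L-RalyKO replicate 2 (0.667) and control replicate 3 (0.676) nearly met. Of 6 adipocyte markers that could be tested (3.19% of all tested genes fell and 3.36% rose), 2 fell, Car3 (−0.77, adjusted p = 0.0189, limma) and Plin4 (−0.94, 0.0120), and 1 rose, Adrb3 (0.66, 0.012). These calls held in 11 of 16 alternatives for Car3, 15 of 16 for Plin4 (lost in edgeR, 0.0535) and 15 of 15 for Adrb3. The 3 markers with the highest values, Car3, Plin4 and Lipe, are also expressed by hepatocytes. Lipe had values of 24.4, 27.9 and 23.6 in L-RalyKO livers and of 30.6, 27.1 and 18.7 in controls, which overlapped (log2 fold change 0.02, adjusted p = 0.967, limma), and the summed level of the list was 1772 to 2176 in L-RalyKO livers and 2668 to 3942 in controls. Car3 alone made up 1666 to 2087 and 2494 to 3729 of these sums, which therefore restate that gene. The part of these genes in the fall of Cfd was not tested.

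Cfp encodes properdin, which stabilizes the alternative convertase and comes from myeloid cells. Its values were 13.73, 11.49 and 12.02 against 10.8, 15.7 and 13.5, which overlapped (log2 fold change −0.08, 95% interval −0.37 to 0.20, adjusted p = 0.749, limma).

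In the classical pathway none of the 5 genes passed in limma, edgeR or limma voom. In limma 1 had an unadjusted p under 0.05, where 22.7% of all tested genes did. DESeq2 called 1, C1ra, where it called 9.36% of all tested genes. C1ra, one of the proteases of the C1 complex, had values of 405, 383 and 406 against 339, 359 and 347, without overlap, and a log2 fold change of 0.19 (95% interval 0.08 to 0.30, adjusted p = 0.0550 from limma and 0.0248 from DESeq2). C1ra shares 41.5% of its 50-base words with C1rb, which itself had 0 to 2 reads per liver. C1s1, the protease that C1r activates, had values of 612, 563 and 585 against 590, 591 and 562 (log2 fold change 0.01, 95% interval −0.11 to 0.13, limma). It shares 23.3% of its words with Gm5077, a protein-coding model that overlaps C1s1 on the same strand.

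The 3 chains of C1q had values between 18.3 and 29.2 in all 6 livers and log2 fold changes of −0.05 (C1qa), −0.05 (C1qb) and −0.07 (C1qc), with adjusted p from 0.791 to 0.855 (limma). For each chain L-RalyKO replicate 2 was lowest (20.7, 18.3 and 20.2) and control replicate 2 highest (28.1, 25.0 and 29.2), so that the spread lay between livers and not between groups. The sum of 12 Kupffer cell and macrophage markers was 290, 223 and 277 in L-RalyKO livers and 214, 323 and 267 in controls, with the same highest liver and with L-RalyKO replicate 2 second lowest. None of the 12 markers passed in limma (0 at an unadjusted p under 0.05), edgeR, DESeq2 or limma voom, including Clec4f, Cd5l and Csf1r, the 3 with the highest values. In RNA of whole liver, fewer cells of a type and less RNA per cell cannot be told apart.

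**Figure D5:**
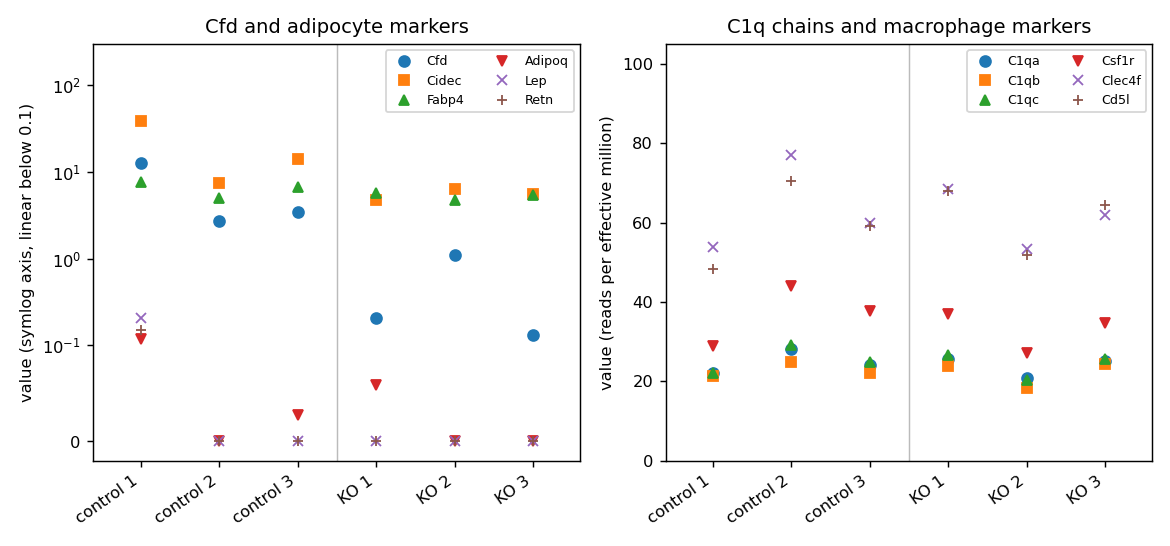
Left, values of Cfd and 5 adipocyte markers in each liver (y axis, symmetric log scale, linear below 0.1). Right, values of the 3 C1q genes and 3 macrophage markers (y axis, linear). Control 1 is highest for Cfd and Cidec and the only liver with reads of Lep and Retn, and C1q is lowest in KO 2 and highest in control 2.

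The receptors were among the lowest of the 33 genes. C3ar1, the receptor for C3a, had values of 2.12, 1.68 and 1.84 against 1.55, 1.89 and 1.78 (log2 fold change 0.07, adjusted p = 0.754, limma). C5ar1, the receptor for C5a, had values of 0.407, 0.261 and 0.158 against 0.298, 0.596 and 0.622, which overlapped, where 3 reads correspond to a value of 0.0789 to 0.105.

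Among the 7 regulators, Cd59a fell and the others did not pass. Cd59a encodes a membrane protein that blocks the last step of pore formation. Its values were 52.7, 51.6 and 53.5 in L-RalyKO livers and 67.4, 58.9 and 62.7 in controls, without overlap, and its log2 fold change was −0.25 (95% interval −0.39 to −0.12, adjusted p = 0.0396 from limma). The call was lost without L-RalyKO replicate 1 (0.114), 2 (0.111) or 3 (0.0809), without control replicate 1 (0.113) without control replicate 3 (0.0673), without the intensity trend (0.0783) and with all genes of at least 1 read (0.0591), and edgeR gave 0.0333. Cd59b, its copy, had values of 0.368 to 0.551 against 0.595 to 0.835 and was too low to be tested.

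The fluid-phase regulators were separated between the groups by small amounts. Cfi, the protease that inactivates C3b and C4b, had values of 550, 542 and 526 against 478, 501 and 486 (log2 fold change 0.14, 95% interval 0.04 to 0.25, adjusted p = 0.111, limma). Serping1, the C1 inhibitor, had values of 704, 708 and 685 against 648, 636 and 666 (log2 fold change 0.11, adjusted p = 0.236, limma). Clu, which binds the nascent terminal complex, had values of 1394, 1429 and 1389 against 1311, 1253 and 1349 (log2 fold change 0.11, adjusted p = 0.291, limma). Vtn, which does the same, had values of 2003, 1948 and 1929 against 1758, 1901 and 1845 (log2 fold change 0.10, adjusted p = 0.381, limma). These 4 are grouped because every L-RalyKO liver lay above every control. Of all 7 regulators, 4 were separated upward and 1, Cd59a, downward (71.4% together). Over all tested genes 14.4% were separated upward and 13.7% downward. Among 10 hepatocyte markers 5 were separated upward and 0 downward (50%). C4bp, a cofactor of Cfi, overlapped between the groups at 493, 437 and 442 against 471, 461 and 411 (log2 fold change 0.03, 95% interval −0.13 to 0.19, limma). Cd55, which speeds the decay of convertases, had values of 9.63, 7.37 and 8.79 against 9.63, 8.91 and 11.3 (log2 fold change −0.19, 95% interval −0.45 to 0.07, adjusted p = 0.363, limma).

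Of 27 further genes of the complement system and its receptors, 17 could be tested, and 0 passed in limma, edgeR or limma voom. In limma 2 had an unadjusted p under 0.05, where 22.7% of all tested genes did. DESeq2 called 1, Cpn2, where it called 9.36% of all tested genes. The 3 with the smallest p were Cpn2, Cfhr2 and C5ar2. Cpn2, a subunit of the carboxypeptidase that inactivates C3a and C5a, had values of 435, 425 and 419 against 338, 357 and 394 (log2 fold change 0.23, adjusted p = 0.0611 from limma and 0.0176 from DESeq2). Cfhr2, a factor H-related gene, had values of 618, 602 and 561 against 529, 532 and 553 (log2 fold change 0.14, adjusted p = 0.165, limma), and C5ar2 had values of 2.15, 1.33 and 2.24 against 1.43, 1.23 and 1.35 (log2 fold change 0.30, adjusted p = 0.255, limma). The log2 fold change of C5ar2 ran from 0.22 to 0.51 over the alternatives, none of which called it. The median log2 fold change over the 17 was 0.04. Their groups did not overlap for 11.8% (2 higher and 0 lower), where this held for 28.1% of all tested genes.

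Several complement genes are acute phase genes, and a list of 20 acute phase genes was set beside them. Of the 20, 3 rose and 0 fell in limma (15%, where 6.55% of all tested genes passed), with a median log2 fold change of 0.13. On the recovered reads 4 passed in edgeR, 6 in DESeq2 and 3 in limma voom, where 6.76%, 9.36% and 6.36% of all tested genes did. The groups did not overlap for 10 that were higher and 1 that was lower (55%, where this held for 28.1% of all tested genes). Those that rose were Saa1 (0.79, adjusted p = 0.0118, limma), Orm1 (0.25, 0.0173) and Serpina3n (0.22, 0.0429). The call of Saa1 held in all 16 alternatives. That of Orm1 was lost without L-RalyKO replicate 1 (adjusted p = 0.0530, limma), 2 (0.0583) or 3 (0.0522) and without control replicate 1 (0.0604) or 2 (0.0520). That of Serpina3n was lost in 9 of the 16, namely without the intensity trend (0.0889), with total count scaling (0.0611), with all genes of at least 1 read (0.0648), with the replicate block (0.0693) and without L-RalyKO replicate 1 (0.151) or 2 (0.117) or control replicate 1 (0.113), 2 (0.113) or 3 (0.0507). Among 10 hepatocyte markers, which were high in all livers, 10 had a log2 fold change above 0 (median 0.17), where 5925 of all 11580 tested genes did. The groups did not overlap for 5 of these markers that were higher and 0 that were lower (50%, where this held for 28.1% of all tested genes). In DESeq2 5 passed (9.36% of all tested genes), and 1 passed in limma (6.55%), edgeR (6.76%) and limma voom (6.36%). That one, Hnf4a, a hepatocyte transcription factor, had values of 900, 809 and 829 in L-RalyKO livers and of 520, 542 and 680 in controls (log2 fold change 0.55, adjusted p = 0.0155, limma), a call that held in 13 of 16 alternatives. The summed value of the 10 markers was 117100 to 118300 in L-RalyKO livers and 102600 to 113700 in controls, without overlap. Alb alone made up 70090 to 70820 of these sums in L-RalyKO livers and 63860 to 71900 in controls, which overlapped. Its log2 fold change was 0.05 (adjusted p = 0.889, limma). The part of Hnf4a and of this sum in the rises of complement genes was not tested.

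Other cell types were followed by their markers. In limma 0 genes passed of 2 tested for neutrophils, 8 for sinusoidal endothelium, 10 for stellate cells, 2 for mesothelium, 3 for bile duct and 4 for red cells. At an unadjusted p under 0.05 there were 2 stellate and 1 bile duct genes and 0 of the others (22.7% of all tested genes). In each list edgeR and limma voom called 0. DESeq2 called 1 stellate and 1 bile duct gene, where it called 9.36% of all tested genes. Lymphocyte markers (summed value 2.03 to 3.26) and exocrine pancreas markers (0.0270 to 0.32) were too low for any to be tested.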

How the data were processed

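RNA-seq of liver (3 L-RalyKO, 3 control mice) was used, and each column was assigned through the virus and number in its name. The ATAC-seq and ChIP-seq experiments were not analysed here. The deposited signal is the read count of a gene over the library's effective size. It is not the FPKM that the methods describe (TopHat v2.0.2, Cufflinks v2.0.2, mm9), and the counter is not given in the sources used here. All values were whole multiples of that of 1 read (within 0.01), which gave back the reads. The main test was limma 3.58.1 (R 4.3.3, intensity trend) on log2(value + 1), limited to genes whose mean value reached 1, with Benjamini-Hochberg adjustment. This scale understates changes of low genes. Within groups, chi-square over its degrees of freedom was 12.6 to 84.3, so that livers of a group differed by more than counting error. Genes with many reads weigh most in this measure, and mouse and library cannot be told apart. By this measure control replicate 1 stood apart, at 71.1 and 84.3 against control replicates 2 and 3, which gave 18.2 against each other.

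The genes and lists were chosen with earlier results of these data known. All 33 members were described, with the 3 further complement genes of smallest p, the 3 largest called acute phase changes, and the 3 macrophage and 3 adipocyte markers of highest value. Hnf4a, Cidec, Adrb3, Fabp4, Pnpla3, Aoc3 and the low adipocyte markers were picked after their values were seen. Ly6g and Trac had no match. Positions, exon lengths and 50-base words come from GENCODE vM1 on NCBIM37. Alternatives were edgeR 4.0.16, DESeq2 1.42.0 and limma voom on recovered reads, other scalings, filters and pseudocounts, a replicate block and leaving out each liver. The tests were first run on simulated data.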

Additional observations from a re-analysis of the deposited data

How the results depend on the processing

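Over all genes, 758 passed an adjusted p under 0.05 (389 higher, 369 lower), and 793 did (324 higher, 469 lower) with total count scaling. When all genes with at least 1 read were tested, 484 passed (254 higher, 230 lower). With 1 liver omitted the count ran from 332 to 813, of which 168 to 454 were higher and 164 to 359 lower. Of the complement genes, 9 passed (6 higher, 3 lower), and 5 did, with 0 lower, both without the intensity trend and with this wider set. Leaving out 1 liver gave from 4 to 8, from 4 to 6 higher and from 0 to 2 lower. The cause of these differences was not tested. The same-numbered mice are different animals whose deviations correlated by −0.02 to 0.07, so that the numbers do not pair them, and with the replicate block 8 complement genes passed (6 higher, 2 lower) and 704 genes in all. Among the single complement genes, 292 values under the alternatives that kept all livers had the same direction and side of the threshold, 12 lost their call, 1 gained one and 3 turned. Total count scaling turned the log2 fold change of C1s1 to −0.021, of Masp2 to −0.023 and of C4bp to −0.0036, all uncalled, and moved the median of all genes by −0.03. With 1 liver omitted, 151 values were the same in this sense, 19 lost their call and 16 turned. The values that turned were uncalled, those of C1qa (from −0.13 to 0.038), C1qb (−0.12 to 0.080), C1qc (−0.16 to 0.049), C1s1 (−0.017 to 0.042), Masp2 (−0.030 to 0.064), Colec11 (−0.0026 to 0.16), C4a (−0.14 to 0.41), C4b (−0.015 to 0.087), Cfp (−0.21 to 0.035) and C4bp (−0.029 to 0.068).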
